A study of Bos taurus with 6 samples.

Results

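A group of 48 bovine genes read low in day-7 blastocysts that grew in synchronized recipients and higher in blastocysts that grew in superovulated heifers. They were chosen by their signals alone: the highest of the 3 synchronized arrays had to lie below log2 4 and the lowest of the 3 superovulated arrays above log2 4.5, on a probe set with 1 gene symbol. Genes of the ribosome, translation, respiratory chain, proteasome, solute carrier, splicing factor and heat shock families and CPSF3 were left out by symbol. Each of the 48 genes was represented by 1 such probe set. Of 24016 probe sets tested, 99 passed both thresholds; 48 are the members, 20 were left out by symbol and 31 had no symbol.

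The blastocysts were collected on day 7 and measured on an Affymetrix bovine expression array with 3 arrays per group. The superovulated group holds embryos that stayed in Simmental heifers after synchronization, superovulation and insemination. The synchronized group holds embryos of such superovulated donors too, but these were flushed on day 2 at the 2-cell stage and transferred through an endoscope to heifers given synchronization alone. Both groups thus descend from stimulated ovaries, and transfer goes with the synchronized group, so tract and handling cannot be told apart. The labels do not say whether arrays of 1 group hold embryos of different animals, or how many blastocysts went into each.

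The blastocyst consists of an outer epithelium, the trophectoderm, around an inner cell mass that gives rise to the fetus and to the primitive endoderm. By this stage the embryo runs on its own transcripts, builds ribosomes and membranes, and takes up and remakes lipids. The 48 genes form no single pathway. They span lipid and small-molecule metabolism (9 genes), ubiquitin and protein breakdown (6), the nucleolus and RNA handling (10), the endoplasmic reticulum and Golgi (4), mitochondria and iron-sulfur proteins (4), cell division and the genome (4), the cell surface, endocytosis and signalling (8), and the cilium and other membranes (3).

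Because the rule used this comparison, the difference between the groups is a description of the members and carries no test. Values are log2 signals, differences are superovulated minus synchronized, and errors are SD over the 3 arrays of a group. The differences ran from 1.01 for SPC24 to 3.39 for AGPAT5, with a median of 1.93 over the 48 members and of -0.02 over all probe sets. The empty band between the lowest superovulated and the highest synchronized array, called the gap here, ran from 0.69 to 2.84 with a median of 1.45. It was at least 1 log2 unit in 42 members and at least 2 in 7. In limma, a linear model fitted across all probe sets, 31 of the 48 passed an adjusted p of 0.05, where 0.716% of all probe sets passed. Nothing is read from this count, since the rule chose the members on the same comparison. Those 172 calls over all probe sets were 97.1% rises, against 43.4% of 647 calls once each array was centred on its bright probe sets, and only 28 calls were made after a second quantile normalization. In whole embryos, fewer cells that express a gene and less RNA per cell cannot be told apart.

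**Figure D1:**
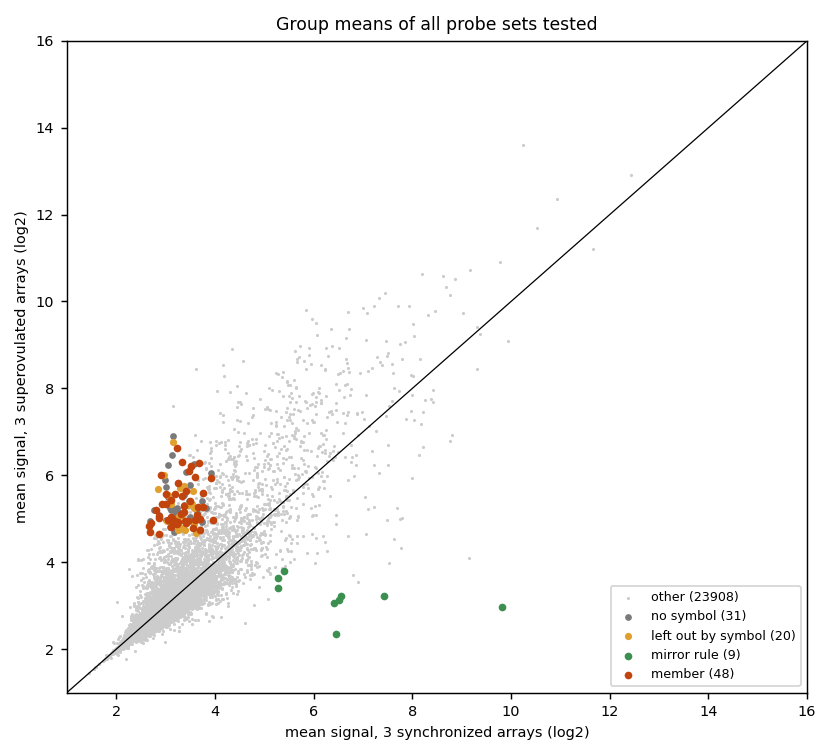
Mean log2 signal on the 3 synchronized arrays (horizontal) against the 3 superovulated arrays (vertical) for every probe set tested; the line marks equal means. The 48 members, the 20 probe sets left out by symbol and the 31 without a symbol share 1 corner, and the 9 probe sets of the opposite pattern lie on the other side of the line.

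Some measures of the arrays differed between the groups while others overlapped, and their part in the result was not tested. Signals above log2 4 were counted at 1457 to 1894 probe sets per superovulated array, and at 973, 1850 and 1184 for synchronized arrays 1 to 3. Control probe sets at the 3' end of GAPDH read 8.67, 8.80 and 9.14 in superovulated against 7.20, 8.35 and 8.22 in synchronized samples, and those at the 3' end of EIF4E 8.16 to 8.52 against 3.71, 6.23 and 5.92. Their middle probe sets read 3.67 to 4.20 for GAPDH and 3.22 to 3.58 for EIF4E, and their 5' ends between 2.60 and 3.49. Signal was thus strongest at the 3' end on all 6 arrays in both genes. The 3' control probe sets of EEF1A1 overlapped between the groups, at 2.82, 3.20 and 4.65 against 2.67, 4.37 and 2.93. Those of PPIB (3.54 to 3.99 against 3.56 to 3.61) and ACTA1 (2.61 to 2.71 against 2.64 to 3.03) overlapped too. In EEF1A1 and ACTA1 the 3' end was not the strongest on every array. Of the markers fixed for other cells, 13 of 13 blood and immune genes and 8 of 9 oviduct and uterus genes lay below log2 4 on all 6 arrays, the exception being C3, a member. Of 15 cumulus and granulosa genes 8 lay below log2 4 throughout; TNFAIP6, of the cumulus matrix, read 3.05, 2.99 and 7.38 in superovulated samples against 4.25, 8.47 and 5.96 in synchronized samples, in order of array number, with overlapping groups. PTGS2, a prostaglandin synthase on the same list, read 4.74, 4.47 and 3.88 against 2.86, 3.16 and 3.21, without overlap; 0 of the 15 passed in limma and the list median was -0.12, with 1 higher and 0 lower at an unadjusted p below 0.05. That list averaged 3.19, 3.13 and 3.67, then 3.22, 3.97 and 3.36 in the same order.

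The largest gap was that of AGPAT5, which encodes an acyltransferase that makes phosphatidic acid, the precursor of membrane phospholipids and storage fat. Its superovulated signals were 6.30, 7.09 and 6.48 and its synchronized signals 3.09, 3.46 and 3.15 (below, the 3 superovulated arrays are always given first, in order of their number), means of 6.62 ± 0.41 and 3.23 ± 0.20. All superovulated arrays were high, array 2 the highest, and the synchronized arrays lay close together. HSD17B11, a dehydrogenase of lipid droplets, read 6.13, 6.28 and 6.25 against 2.91, 3.76 and 3.90. Its superovulated arrays were nearly level, whereas synchronized array 1 lay 0.99 below array 3. EBP, the sterol isomerase of cholesterol synthesis, read 5.36, 5.69 and 5.24 against 2.86, 3.31 and 3.13.

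Fatty acid handling was represented by CPT2 and ACSL3. CPT2, which hands fatty acids from carnitine to coenzyme A inside the mitochondrion, read 6.09, 6.18 and 5.19 against 2.95, 3.36 and 3.45, so that superovulated array 3 lay about 1 unit below arrays 1 and 2. The same array was low for ACSL3, which activates long-chain fatty acids: 5.04, 5.63 and 4.77 against 3.02, 3.42 and 3.68.

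ALDH7A1 encodes the aldehyde dehydrogenase that works in lysine breakdown and in betaine formation. Its signals were 6.12, 5.94 and 5.85 against 3.61, 3.41 and 3.74, means of 5.97 ± 0.14 and 3.59 ± 0.17. The arrays within each group were even. The other metabolic members were NME2, a nucleoside diphosphate kinase with a near-identical paralog that the array may not separate (difference 2.02), CKB, the brain-type creatine kinase (2.20), and GBE1, the glycogen branching enzyme (1.5). For NME2 the synchronized arrays read 3.89, 3.86 and 3.98, just under the threshold; CKB was the least even of the 3, at 5, 5.61 and 4.59 against 2.60, 2.55 and 3.45.

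Other enzymes of the pathways of AGPAT5 and ALDH7A1 differed less than these members. Among 29 measured genes of phosphatidic acid and glycerophospholipid synthesis, AGPAT5 alone passed the limma test over all probe sets, 0 fell (2 were higher and 0 lower at an unadjusted p below 0.05), the median difference was -0.02, and 24 of the 29 read below log2 4 on all 6 arrays. Its relatives AGPAT1, AGPAT2, AGPAT3 and AGPAT4 differed by -0.01, -0.08, -0.06 and 0.18, all 4 below log2 4. In the aldehyde dehydrogenase family ALDH7A1 was the only 1 of 15 to pass, with a list median of 0.06. At an unadjusted p below 0.05 in limma, 5 were higher and 1 lower. Of all 24016 probe sets, 1596 met that p in either direction. ALDH5A1 and ALDH2 differed by 0.96 and 0.81 without passing, and ALDH9A1 by -0.63. In ALDH2, ALDH4A1, ALDH5A1, ALDH16A1 and ALDH18A1 the superovulated arrays were likewise all above the synchronized arrays, as in 5.42% of all probe sets. In ALDH9A1 they were all below, as in 7.89% of all probe sets. Of 16 genes of lysine degradation, 1 passed, again ALDH7A1, 3 were higher and 0 lower at an unadjusted p below 0.05, and the median was 0.00. The 1 call in each list is the member itself and is no separate evidence, and a gene without signal on any array shows nothing about its transcript.

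Among ubiquitin and protein breakdown genes, 3 members act in modifier conjugation. UBA6, an activating enzyme for ubiquitin, read 6.03, 6.71 and 6.09 against 3.65, 3.47 and 3.91. TOPORS, a ligase for ubiquitin and SUMO, read 5.89, 6.64 and 5.75 against 3.42, 3.41 and 3.57. In both genes superovulated array 2 stood above arrays 1 and 3. The conjugating enzyme gene UBE2E1 differed by 1.93. POMP, the chaperone that assembles the proteasome core, read 5.27, 5.55 and 5.22 against 2.59, 3.20 and 3.22. The peptidase genes THOP1 and CTSV differed by 2.38 and 1.66; the THOP1 probe set is of the kind marked _s_at, which can match several transcripts or genes, and CTSV has close paralogs.

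The nucleolus, where ribosomal RNA is made and the subunits are put together, supplied 6 members of a list of ribosome assembly genes. WDR43, of the complex that processes the small subunit RNA, read 5.88, 5.93 and 5.10 against 3.26, 3.47 and 3.51. PAK1IP1, an assembly factor of the large subunit, differed by 1.51 and IMP4, of the small subunit machinery, by 1.32. FBL, the methyltransferase fibrillarin, was among the 3 smallest gaps: it read 4.70, 4.97 and 4.67 against 2.88, 3.85 and 3.94. Synchronized array 3 of FBL came within 0.73 of the superovulated range, while array 1 was about 1 unit lower. NOL7 (1.29) and NOP53 (1.73), both on _s_at probe sets, completed the 6.

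The list holds 78 measured genes and was drawn up after the members were known. In it 6 genes rose in limma and 0 fell (22 were higher and 2 lower at an unadjusted p below 0.05, which 1596 of 24016 probe sets met in either direction), with a median difference of 0.02 and 43 genes below log2 4 on all arrays. The 6 calls were the members WDR43 and PAK1IP1 and the non-members NOP56 (1.88), WDR75 (1.70), MRTO4 (0.80) and RIOK2 (0.64). The differences of the non-members NOL10 (2.45) and NCL (1.80) did not pass. WDR75, a partner of WDR43 in the same complex, read 4.62, 4.87 and 4.41 against 2.92, 2.93 and 2.96, and missed membership by 0.09 on superovulated array 3.

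The remaining members of this group are nuclear proteins and a factor of mRNA decay. SAFB2, a scaffold attachment factor that binds RNA, read 5.57, 5.53 and 4.95 against 2.98, 2.67 and 3.10. DCP1B, a cofactor of mRNA decapping, read 4.71, 5.13 and 5.21 against 2.92, 2.96 and 2.72. LUC7L, a splicing factor of the U1 particle, and CCDC59, a nuclear protein, differed by 1.38 and 1.61. In DCP1B superovulated array 1 was the lowest, in SAFB2 array 3.

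CCDC47, which helps to insert membrane proteins at the endoplasmic reticulum, had the widest spread inside the superovulated group: 6.53, 6.89 and 5.49, against 3.06, 3.41 and 3.53. RER1, which returns proteins from the Golgi, had the narrowest, at 5.12, 5.10 and 5.06, against 3.5, 3.77 and 3.63. OSTC, a subunit of the enzyme that attaches sugar chains to proteins, lay next to the upper threshold, at 4.53, 4.91 and 4.51 against 2.52, 3.33 and 2.72. LNPK, which shapes the junctions of the reticulum, differed by 2.20. These 4 genes therefore ranged from nearly constant to widely scattered within 1 group.

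Mitochondrial members were OXA1L, the inserter of proteins into the inner membrane (difference 1.85), PTRH2, a peptidyl-tRNA hydrolase (1.80), and HINT2, a nucleotide hydrolase (1.83), and BOLA2B, a partner of iron-sulfur transfer, differed by 1.48. PTRH2 read 4.83, 5.26 and 5.24 against 3.32, 3.31 and 3.31, and the synchronized values agreed to 0.01.

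CDK1, whose kinase starts mitosis, was even in both groups, at 4.67, 4.76 and 4.68 against 2.79, 2.58 and 2.65. SPC24, a kinetochore subunit, had the smallest gap of all: it read 4.80, 5.41 and 4.68 against 3.90, 3.99 and 3.98. NBN, of the complex that senses broken DNA, differed by 1.66 and the deacetylase gene SIRT1 by 1.56. In the fixed lists CDK1 was the only 1 of 29 mitotic kinase and cyclin genes to pass limma and NBN the only 1 of 44 DNA repair genes, with list medians of -0.01 and -0.01 and 0 falls in each (2 and 7 higher, 0 and 1 lower at an unadjusted p below 0.05). The fixed lists of tRNA synthetases (29 genes), nuclear pore and transport (48), autophagy (34) and peroxisome (26) held no member, and 0 of their genes passed in limma; their medians lay between -0.02 and 0.02. At an unadjusted p below 0.05, 4, 4, 1 and 2 of them were higher and 0, 1, 1 and 0 lower in the superovulated group.

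At the cell surface, DAB2, an adaptor for endocytosis expressed by extraembryonic epithelia, read 4.87, 5.02 and 4.85 against 2.32, 2.66 and 3.14. Its superovulated arrays were level and its synchronized arrays spread over 0.82. C3, the central complement protein, read 5.29, 5.95 and 5.44 against 2.78, 2.84 and 3.38. C3 is also a gene of oviduct and uterus. On that list OVGP1, the defining secretory gene of the oviduct, read 2.19 to 2.26 on all arrays, and PAX8 and MUC1 stayed below 2.7. BSG, the membrane glycoprotein basigin that escorts lactate transporters, read 5.04, 5.44 and 5.14 against 2.21, 2.92 and 3.29, and synchronized array 1 was the lowest signal of any member. The adhesion protein gene CD99 differed by 2.17, the lectin gene LGALS4 by 1.93, the phosphatase gene PTPN2 by 1.93, ANXA2, a calcium-dependent membrane binder, by 1.90, and the scaffold gene CASK by 1.70. Of 10 trophectoderm markers measured, DAB2 and the non-member KRT18 (3.89) passed limma, and the list median was 0.25. On all arrays 7 lay below log2 4, KRT8 among them at 2.27 to 2.30. At an unadjusted p below 0.05, 4 were higher and 0 lower. The non-member ATP1B3 (1.28) did not pass, though its groups did not overlap. Of the 3 inner cell mass markers measured, KLF4 read 4.83, 5.53 and 4.94 against 4.08, 3.69 and 3.58, POU5F1 3.54, 3.43 and 3.24 against 2.65, 2.73 and 2.40, and SOX2 2.40 to 2.44 throughout. The groups did not overlap in KLF4 and POU5F1, with superovulated higher, as in 5.42% of all probe sets. Of the 3 markers 0 passed in limma, 2 were higher at an unadjusted p below 0.05, and the median was 0.81. Of the 8 primitive endoderm markers 0 passed in limma, 2 were higher and 0 lower at an unadjusted p below 0.05, and the median was 0.03. GATA6 (2.12) and FN1 (2.23) had the largest differences and did not overlap between the groups. On all arrays 4 of the 8 lay below log2 4. GATA4 (-0.20) and HNF4A (-0.07) were among these, with overlapping groups, so their differences show no direction.

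TMEM184B, a transmembrane protein, read 6.29, 6.41 and 5.34 against 2.87, 2.60 and 3.23, with superovulated array 3 about 1 unit below the others. IFT43, of the complex that carries cargo back along the cilium, differed by 1.75, and NBEAL1, a large BEACH-domain protein, by 1.05. The NBEAL1 arrays were close to both thresholds, at 4.67, 4.88 and 4.67 against 3.71, 3.86 and 3.5.

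**Figure D2:**
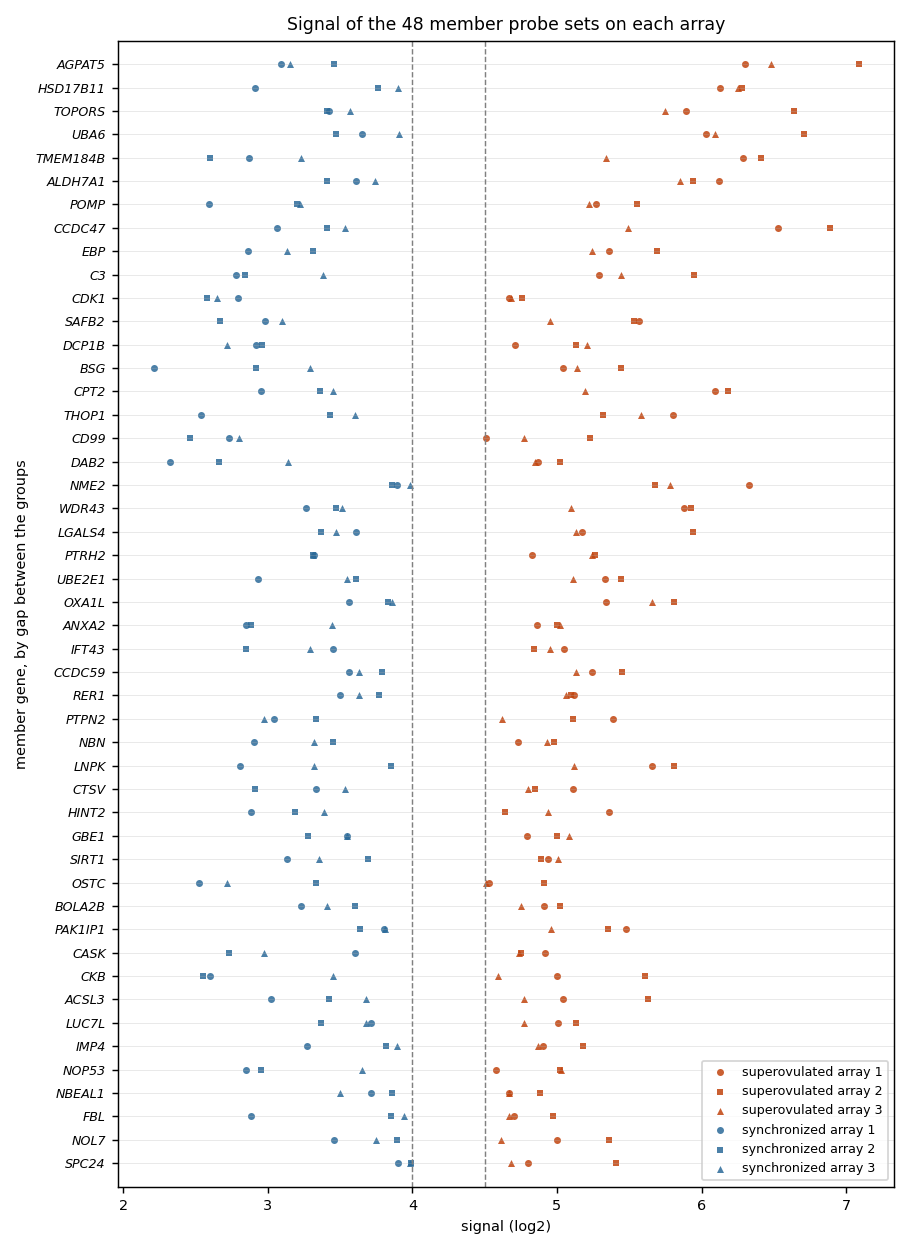
Log2 signal of each member probe set (rows, ordered by the gap between the groups) on the 3 superovulated arrays (red) and the 3 synchronized arrays (blue); marker shape gives the array number and dashed lines the thresholds of 4 and 4.5. The groups are separated by 2.84 for AGPAT5 at the top and by 0.69 for SPC24 at the bottom, and the separation follows from the rule.

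Only some of the members ranked low on the synchronized arrays. No detection calls were analysed here, so each signal was ranked among all 24016 probe sets of its array, whose medians lay between 2.75 and 2.80. On the superovulated arrays the members lay between the percentiles 94.6 and 99.1. On synchronized arrays 1 to 3 their median percentiles were 71.4, 85.2 and 87.8, and 13, 11 and 17 of the 48 ranked above 90% of the array. Just 2 members, CDK1 and CD99, were at or below the array median on all 3 synchronized arrays. At the other end SPC24 averaged the percentile 94.1 there and NME2 93.8, above most probe sets of the same arrays. The highest synchronized array lay between 3.5 and 4 in 28 members, and all 3 were below 3.5 in 20. By rank, then, the members ran from low to fairly high on the synchronized arrays. On average over the arrays, log2 4 lay at percentile 93.7 and log2 4.5 at 95.9. The high superovulated ranks and the synchronized upper limit thus restate the rule. Between 92.06% and 95.91% of the probe sets of each array lay below log2 4. A rank above the array median therefore does not show expression, and whether these signals exceed background was not tested.

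**Figure D3:**
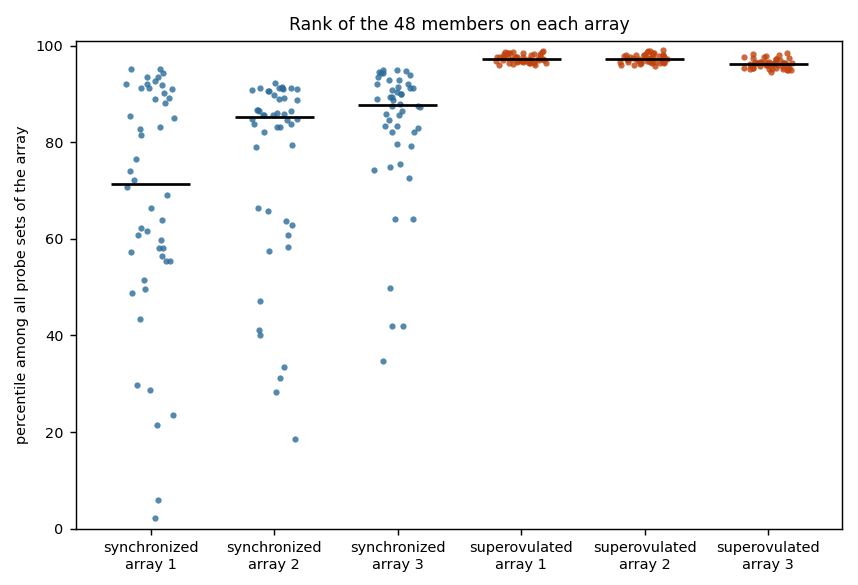
Percentile of each member's signal among all probe sets of the same array (vertical) on the 6 arrays (horizontal); black bars are medians over the 48 members. Superovulated values lie between 94.6 and 99.1, whereas synchronized values spread from 2.2 to 95.2.

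The members' signals varied between the synchronized arrays more than those of other dim probe sets. The range over the 3 synchronized arrays had a median of 0.46 in the members and 0.10 in the 21770 probe sets below log2 4 on all 3. Synchronized array 1 was the lowest in 28 of 48 members (58.3%) against 11.6% of those dim probe sets, where array 2 was the lowest in 75.3%. Array 1 was also the array with the fewest bright probe sets. In the superovulated group the median range was 0.45, near the 0.49 of all 879 probe sets above 4.5 on its 3 arrays. There array 2 was the highest in 32 of the 48 (66.7%, against 46.5% of the 879) and array 3 in 5 (10.4%, against 37.0%), while array 3 was the lowest in 28. These shares are descriptions of 6 arrays, and the thresholds act on the lowest and highest arrays too. The members were not matched for signal to the dim probe sets. Their median percentiles on synchronized arrays 1 to 3 were 71.4, 85.2 and 87.8.

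Other probe sets of the same genes seldom showed the pattern. A further 35 probe sets covered 23 of the member genes, and 25 genes had 1 probe set only. None of the 35 met the rule by definition, since a probe set that did would itself be a member. The 48 member probe sets belonged to 48 genes, so no gene had more than 1. Of the 35, 29 stayed below log2 4 on all 6 arrays, and 29 differed by less than 0.3 in either direction. Their median difference was -0.01, with 16 above 0 and 19 below. The groups did not overlap in 5 of the 35 with superovulated higher (14.3%, against 5.42% of all probe sets) and in 2 with superovulated lower, where 7.89% of all probe sets did so. These probe sets come from the same RNA and arrays as the rule, so they are described without a test.

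AGPAT5 had 4 other probe sets: 3 of them read between 2.64 and 3.06 on every array, and the last read 3.53, 4.5 and 3.75 against 3.52, 3.49 and 2.98, a difference of 0.60. Of the 2 others of ALDH7A1, 1 read 4.01, 4.64 and 4.19 against 3.5, 4.02 and 3.52, again 0.60, with the groups overlapping by 0.01, and the other differed by -0.13. WDR43 came closest to the rule, since 1 other probe set read 4.94, 4.40 and 4.61 against 3.48, 2.57 and 3.98 and another differed by 0.42. For ACSL3, 1 other probe set was bright in both groups, at 5.70, 6.86 and 6.25 against 4.55, 5.68 and 5.54, a difference of 1.01, and 1 differed by -0.06. In these 4 genes another probe set was higher in the superovulated group by at least 0.5.

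In a pair of genes another probe set read above log2 4 on 5 of 6 arrays and differed little between the groups: TOPORS had 1 that read 4.33, 4.39 and 5.29 against 3.67, 6.31 and 4.81, and NOL7 1 that read 4.18, 4.59 and 4.14 against 4.45, 3.90 and 4.48. Both genes thus exceeded log2 4 on 2 of 3 synchronized arrays through a different probe set, with differences of -0.26 and 0.03. ACSL3 likewise was above 4.5 on every synchronized array, and ALDH7A1 reached 4.02 on 1. For the other genes with flat probe sets, such as UBA6 (-0.10), TMEM184B (-0.06), BSG (-0.01), DAB2 (-0.13) and SIRT1 (-0.04), the second probe set lay below log2 4 on every array.

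**Figure D4:**
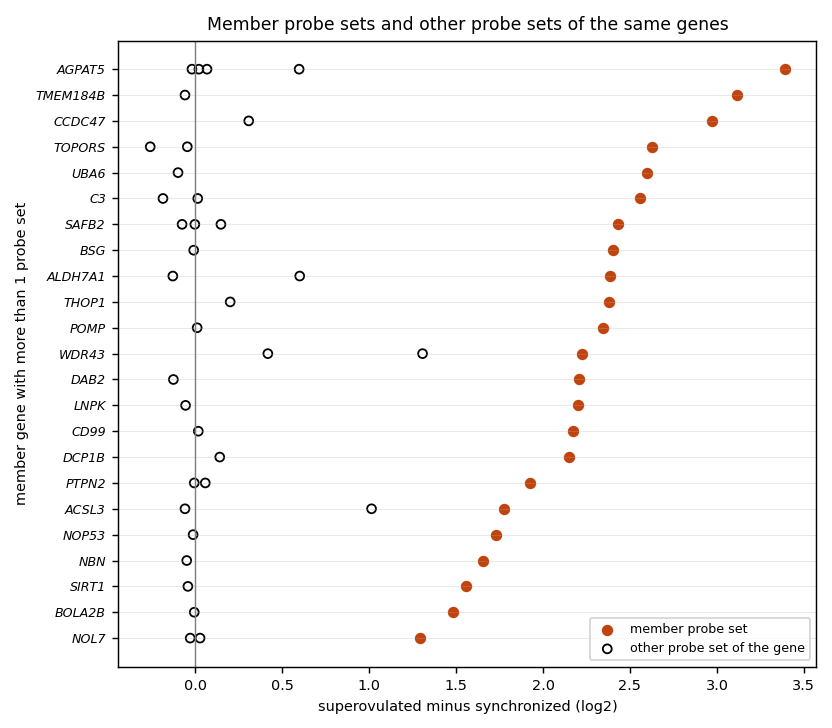
Difference in log2 signal, superovulated minus synchronized (horizontal), for the 23 member genes with more than 1 probe set; filled points are the member probe sets and open circles the 35 others. Most open circles lie near 0, and those of WDR43 and ACSL3 reach 1.31 and 1.01.

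The pattern was more frequent than its mirror image. Of 879 probe sets above log2 4.5 on all superovulated arrays, 355 were below log2 4 on synchronized array 1, 148 on array 2 and 201 on array 3, and 99 (11.3%) on all 3, which is 0.412% of all probe sets. Conversely, of 416 probe sets above 4.5 on all synchronized arrays 9 (2.16%) were below log2 4 on all superovulated arrays; the 4 with a symbol belong to CLGN, FUT1 and PPP3CC.

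Genes just outside the thresholds had values like those just inside. Among genes with the same symbol rule, 25 probe sets missed by less than 0.15, of which 16 missed on the synchronized side, 8 on the superovulated side and 1 on both. PRKAR1A, a regulatory subunit of protein kinase A, missed with 4 on synchronized array 2, KLF5, a transcription factor of the trophectoderm, with 4.48 on superovulated array 3, and MKRN1 with 4.13 on synchronized array 3 in spite of a difference of 3.34. Inside, SPC24 passed with 3.99 and OSTC and CD99 with 4.51.

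When the rule was applied to 5 arrays and the sixth was then read, synchronized array 2 disagreed the most. Without it 88 genes met the rule, and on array 2 itself 48 of them (54.5%) were below log2 4, against 96.3% of all probe sets that were below 4 on synchronized arrays 1 and 3. The 40 others had a median of 4.59 there, and the highest value was 6.82. Leaving out synchronized arrays 1 and 3 gave 52 and 64 probe sets, of which 92.3% and 75.0% were below 4 on the array left out, against 99.2% and 99.4% of all probe sets below 4 on the remaining pair. Leaving out superovulated arrays 1, 2 and 3 gave 59, 56 and 62, of which 81.4%, 85.7% and 77.4% were above 4.5 on that array, against 90.3%, 97.5% and 94.7% of all probe sets above 4.5 on the remaining pair. The probe sets that pass on the sixth array are the 48 members each time, so each share only restates how many were chosen without it. The comparison probe sets were not matched for signal in the other group. The number of genes in the group depended most on synchronized array 2, which alone kept out 40 more.

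**Figure D5:**
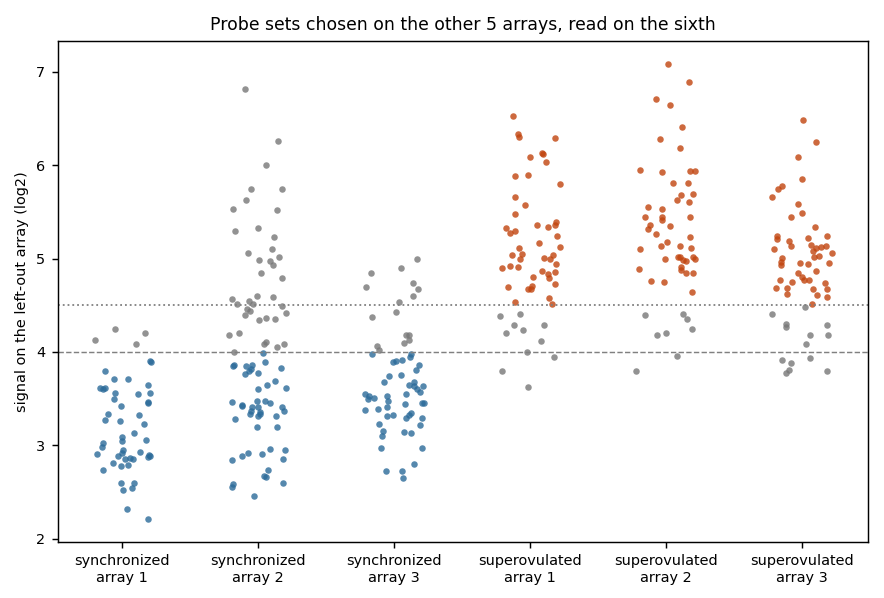
Log2 signal on each array (vertical) of the probe sets that met the rule on the other 5 arrays; coloured points are the 48 members, grey points the probe sets that the sixth array kept out, and lines mark 4 (dashed) and 4.5 (dotted). Grey points are most numerous on synchronized array 2, where 40 lie at 4 to 6.82.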

How the data were processed

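Amplified, biotin-labelled RNA was hybridized, per the labels. The authors deposited a log2 signal for each probe set on each array, made with GCRMA per the submitters' processing notes; its version, and whether the 6 arrays were normalized together, are not given in the sources used here. GCRMA compresses low signals, so differences from the low end of the scale are uncertain in size. Values ran from 1.45 to 15.97 and were used as deposited. The 112 control probe sets were set apart. Symbols came from the platform annotation, and the 48 members matched the RefSeq gene table of ARS-UCD2.0 by gene identifier with 0 changed symbols; no 2 members were neighbouring genes there. The background fit was limma 3.58.1 in R 4.3.3 (lmFit, eBayes, group only, two-sided, Benjamini-Hochberg over 24016 probe sets), tested on simulated data. P-values cover only the variation among these 6 arrays, which could be technical. In gene lists the probe set with the highest mean stood for a gene. The members and lists were chosen with earlier results of these data known. Named in full by rule were AGPAT5, ALDH7A1, the 12 largest and 3 smallest gaps; others were named to account for every member or after their values were seen. Promoter and protein features were not analysed here. Alternatives were other thresholds, scalings, filters, an intensity trend, the replicate number as a block, and each array left out in turn.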

Additional observations from a re-analysis of the deposited data

How the results depend on the processing

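The number of member probe sets, 48, became 7 with thresholds of 3.5 and 5, 29 after a second quantile normalization (26 of them among the 48), 13 after centring each array on its bright probe sets and 28 when ranks on each array replaced log2 values (25 among the 48), an alternative chosen after seeing the data. It was 52 with thresholds of 4.5 and 5 (21 of them among the 48) and 49 after median centring, and 52 to 88 without 1 array. The median difference of the members, 1.93, was 1.66 after quantile normalization, 1.31 after centring on bright probe sets and 2.56 with thresholds of 3.5 and 5. All 48 differences stayed above 0 under every scaling, which the rule favours. They also did so without each array, which the rule fixed in advance and which is no support. Centring on bright probe sets moved the median of all probe sets to -0.645, that of the other probe sets of the member genes to -0.63, and that of the trophectoderm list from 0.25 to -0.37. The 172 limma calls over all probe sets included 31 members. The calls became 28 after quantile normalization (4 members), 149 after median centring (27 members) and 647 after centring on bright probe sets (31 members). An intensity trend gave 50 calls (9 members). Leaving out 1 array gave 26 to 137 (4 to 11 members), and without synchronized array 2 the 137 calls were 70.1% rises. When testing was limited to 1406 brighter probe sets, those averaging over log2 4, 441 were called, among them all 41 members tested. Members pass that filter only through their superovulated arrays, so it selects on the comparison tested and this count is no support. With the replicate number as a block limma made 0 calls, with 1382 at an unadjusted p below 0.05 against 1596 without the block. Same-numbered arrays correlated in their deviations from the group mean at 0.54, -0.40 and -0.41. Deviations within a group sum to 0, so these values constrain each other. They cannot show whether arrays of the same number were handled together. The highest correlation across the groups, 0.69, was between superovulated array 3 and synchronized array 2. The lowest were -0.59 for superovulated array 1 with synchronized array 2 and -0.59 for superovulated array 3 with synchronized array 1. Array number limits precision.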

Other observations

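The 40 named genes that synchronized array 2 alone kept out of the group, picked here after their values were seen, include 3 subunits of RNA polymerase II. POLR2B read 6.61, 6.74 and 6.55 in superovulated against 2.75, 5.33 and 3.65 in synchronized samples. POLR2F read 7.28, 6.73 and 6.33 against 3.16, 4.51 and 3.5, and POLR2H 4.53, 4.72 and 5.43 against 3.82, 5.02 and 3.81. In all 3, synchronized array 2 stood above synchronized arrays 1 and 3. The same held for KIF23, a kinesin of cytokinesis, at 5.04, 5.14 and 5.04 against 2.24, 5.10 and 3.49, and for GMNN, the replication licensing inhibitor geminin, at 5.24, 5.82 and 5.35 against 3.48, 5.53 and 3.86. On array 2 KIF23, GMNN and POLR2H lay within the superovulated range, and POLR2B and POLR2F below it. NIPSNAP2, a mitochondrial protein, and RAB6A, a Golgi GTPase, read 6.82 and 6.26 on synchronized array 2, above each of their superovulated arrays, which read 4.87 to 5.64 and 5.21 to 5.52.

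The 31 probe sets without a symbol that pass both thresholds differed by 1.21 to 3.76 with a median of 2.13, and the 20 left out by symbol by 1.04 for ATP5PD to 3.61 for CPSF3.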
